A study of Mus musculus with 4 samples.

Results

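Trp53 encodes p53, and Mdm4 encodes a protein that binds p53 and holds it inactive. Their sequence variants were taken from lists called on messenger RNA of 2 mouse cancer cell lines, MBT2 (bladder cancer, clone label 63) and LM8 (osteosarcoma), both syngeneic with C3H/HeN mice. The medium was RPMI-1640 for MBT2 and MEM with HEPES for LM8, each with serum and antibiotics, and neither line was treated. Each line gave 2 libraries of poly(A) RNA. Every listed variant whose annotated gene symbol was Trp53 or Mdm4 was included. There were 8 such entries among 11806 in both lists, and they named 7 distinct variants. MBT2 had 3 in Trp53 and 1 in Mdm4 of 6361 entries, and LM8 had 2 in each gene of 5445 entries. Nothing in the labels tells if the duplicates of a line were cultured apart, and p-values between them may measure technical spread alone. The lists give variants and not expression levels, so marker genes of bladder or bone cells were not examined.

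p53 is a transcription factor that DNA damage and other stresses switch on. It halts the cell cycle or starts cell death by binding DNA through a central domain that is folded around a zinc ion. Mdm2 and the related Mdm4 cover its activation domain, and Mdm2 also marks it for destruction. Trp53 is among the most often mutated genes in cancer, bladder cancer and osteosarcoma included, and extra copies of MDM4 are an alternative way in human tumours of keeping p53 inactive.

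MBT2 carried a pair of Trp53 substitutions in a large share of the reads that covered them, and LM8 had none listed. The file headers name no normal sample, and whether any entry was inherited or arose in the line was not tested. The first MBT2 change replaced the last base of intron 4, part of the splice acceptor, in 90.1% of the reads that covered it. The second changed a cysteine of the DNA-binding domain to tyrosine (C239Y) in 32.0% of reads. Both lines also listed an extra T in a run of T in exon 4, at 2.80% in MBT2 and 3.77% in LM8. That variant was the only one shared, so 1 of 4 entries in each line was shared, against 19.8% of all MBT2 entries and 23.2% of all LM8 entries. In Mdm4, LM8 listed a deletion of the end of an intron and an extra base in the 3′ UTR, each in 18.6% of reads. Of the variants of these genes, 2 of 4 in MBT2 and 1 of 4 in LM8 were private to the line and annotated as changing the protein, against 29% of all MBT2 entries and 25.1% of all LM8 entries.

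The sequences of these sites show what each change touches. They were read from GENCODE release M21 transcripts, which belong to the build GRCm38, and are written 5′ to 3′ on the strand of the gene. Positions in the lists are GRCm39, counted from 1. Each site was placed on a transcript by its sequence, and the distances between sites of a gene were the same in the lists and in the annotation (for example 830 bases from the intron 4 acceptor to the changed base of codon 239). The first 4 sequences are of Trp53, with capitals marking the acceptor dinucleotide, the changed codon, the T run and the A run in that order.
Trp53 end of intron 4 and start of exon 5: tctcctctcttccAGtactctcctcccctc
Trp53 codon 239 in exon 7: tgtaatagctccTGCatggggggcatg
Trp53 T run in exon 4: gatgttgaggagTTTTTTgaaggcccaagt
Trp53 A run in exon 4: ttgtcccttctcAAAAAActtaccagggca
The other sequences are of Mdm4, which lies on the minus strand. Capitals mark the first and last dinucleotide of the deleted bases, the C run, and the single substituted base.
Mdm4 bases deleted in LM8 before exon 7: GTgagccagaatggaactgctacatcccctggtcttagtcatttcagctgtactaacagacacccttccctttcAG
Mdm4 C run in the 3′ UTR: cccagggcctgCCCCCCCagtgtcgtaat
Mdm4 substituted base in the 3′ UTR: attcttagaggcAggggcagaagat

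No difference between the duplicate libraries was shown at any of these sites. Fisher's exact test (two-sided) of alternative and reference reads between the duplicates, with Benjamini-Hochberg adjustment over the line's whole list, gave an adjusted p of 1 for all 8 entries. Unadjusted p-values of the 8 entries, from the same exact test, were between 0.253 and 1. Over the whole lists the test called 0% of variants in either line, with 3.76% in MBT2 and 3.89% in LM8 at an unadjusted p under 0.05. The test could miss a difference at entries with few alternative reads. Reads were summed per line, and the share of each library is given beside the sum for the 8 entries. All intervals below are exact (Clopper-Pearson) 95% intervals, which cover counting error only, since amplified reads are not independent molecules. Depths at the 8 entries were 147 to 1088 reads in MBT2 and 70 to 586 in LM8. Every alternative and reference read with a recorded pair orientation at the Trp53 sites (3245 reads) was of the F2R1 form, and every one at the Mdm4 sites (280 reads) of the F1R2 form. The library kit was directional, and the genes lie on opposite strands.

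**Figure D1:**
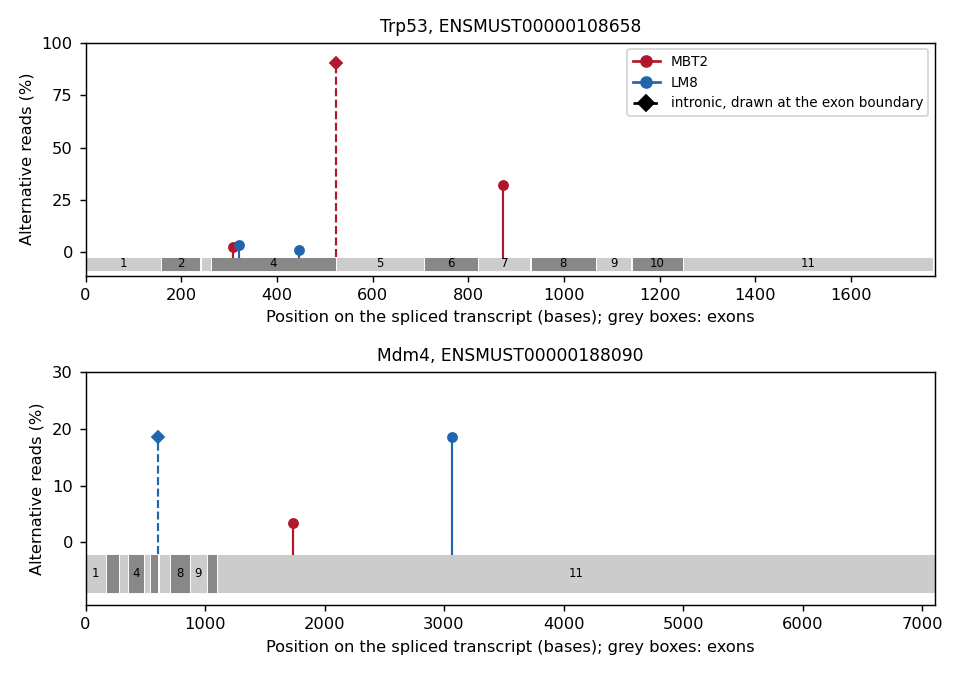
Share of alternative reads (vertical axis, percent, both libraries summed) by position on the spliced transcript (horizontal axis, bases) for Trp53 (top) and Mdm4 (bottom), with exons as grey boxes (the longer ones numbered) and MBT2 in red and LM8 in blue. Diamonds on dashed lines are intronic variants drawn at the exon boundary, and the T insertion of both lines is drawn side by side in exon 4. The 2 tall MBT2 markers in Trp53 are the acceptor substitution at 90.1% and C239Y at 32.0%.

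The acceptor substitution of MBT2 lies on chromosome 11 at position 69479189, at the last base of intron 4. An acceptor is the AG at the end of an intron that the splicing machinery cuts behind. The list gives a G-to-T change there, which turns the AG printed above into AT. Library 1 had 61 alternative reads of 68 (89.7%) and library 2 had 76 of 84 (90.5%), which sum to 137 of 152 (90.1%, interval 84.2 to 94.4). Both libraries were high, and 15 reads with the reference base remained. The median base quality was 32 for alternative reads and 45 for reference reads, and the median fragment length 331 and 851 bases. The base is removed when intron 4 is spliced out, so the share is one of RNA that kept it and not of all Trp53 RNA.

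Reads over that intronic base were fewer than in the exons of the same gene. Its depth of 152 reads was 14.0% of that at codon 239 (1088 reads) and 14.2% of that at the T run in exon 4 (1073 reads), with 12.4% and 15.6% of the codon 239 depth in libraries 1 and 2. Intron 4 is 731 bases long, and the annotated processed transcript ENSMUST00000147512 keeps it whole. Read through into intron 4 without splicing, the frame of transcript ENSMUST00000108658 meets a stop at codon 143 of a frame of 390 codons. LM8 has no listed variant at this base, so the depth of LM8 there is not known from the lists.

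Splice site substitutions were few in either list, and many of those in MBT2 were in most reads. MBT2 listed 31 and LM8 listed 13, with Trp53 only among those of MBT2. At least 50% of reads carried the change at 13 of the MBT2 sites and 2 of the LM8 sites. Among the 15 acceptor substitutions of MBT2 the median share was 87.6%, and the Trp53 change was the fifth by share and the fourth by depth. Its share was near that median, while its depth of 152 reads stood above their median of 35.

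C239Y lies on chromosome 11 at position 69480019, in exon 7 of ENSMUST00000108658. The list gives the codon change TGC to TAC. In mouse p53 this cysteine is among the residues that hold the zinc ion. Library 1 had 184 alternative reads of 549 (33.5%) and library 2 had 164 of 539 (30.4%), which sum to 348 of 1088 (32.0%, interval 29.2 to 34.8). About 2 in 3 reads kept the reference codon in both libraries. Alternative reads lay on both read directions, 151 forward and 197 reverse, with a median distance of 21 bases from the read end. Median mapping quality was 60 for both alleles here and at every other Trp53 and Mdm4 site. Trp53 and Mdm4 each have a pseudogene in the mouse genome, and reads from such copies were not told apart in the lists beyond that mapping quality.

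C239Y lay inside the middle range of deeply read missense substitutions of MBT2. At sites of 1000 or more reads the MBT2 list held 28 missense substitutions, and 23 of them were in at least 30% of reads, with a median of 34.2% and quartiles of 31.9% and 37.4%. The LM8 list held 12 at that depth, and 0 of them reached 30%, with a highest share of 27.0%. By share, C239Y was number 21 of the 28. Over all depths, 148 of 754 missense substitutions in MBT2 (19.6%, interval 16.9 to 22.6) and 6 of 636 in LM8 (0.943%, interval 0.347 to 2.04) were in at least 30% of reads.

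**Figure D2:**
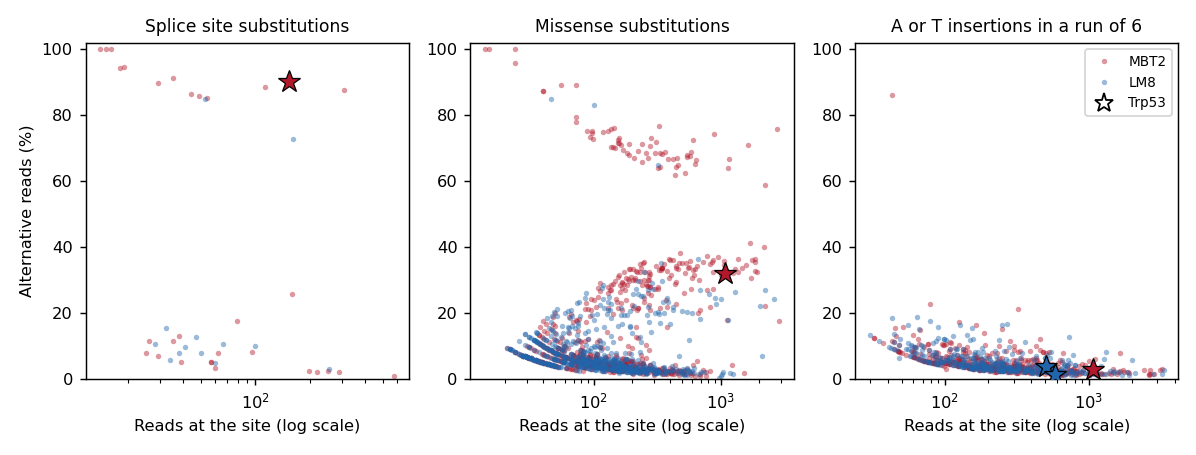
Share of alternative reads (vertical axis, percent) against reads at the site (horizontal axis, log scale) for 3 kinds of variant in the whole lists, with MBT2 in red, LM8 in blue and Trp53 as stars. The acceptor change sits with the other high-share splice changes of MBT2, C239Y lies inside the band of MBT2 missense changes between 20% and 40%, and the Trp53 insertions lie at the low edge with nearly all other insertions of that kind.

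The 2 Trp53 insertions were in a few percent of reads or less. The first, an extra T after position 69478248 of chromosome 11, was listed in both lines. In MBT2 it had 12 of 533 reads in library 1 (2.25%) and 18 of 540 in library 2 (3.33%), and in LM8 12 of 251 (4.78%) and 7 of 253 (2.77%). The lines overlapped, since library 2 of MBT2 lay above library 2 of LM8. Summed, the share was 2.80% of 1073 reads in MBT2 (interval 1.89 to 3.97) and 3.77% of 504 in LM8 (interval 2.28 to 5.82). The difference MBT2 minus LM8 was -0.97 percentage points (Newcombe 95% interval -3.18 to 0.81). Fisher's exact test (two-sided) of the summed reads gave p = 0.350, adjusted over 1261 shared variants p = 0.955, so no difference was shown. Over all shared variants 7.3% passed, 1.9% with the higher share in MBT2, and the 92 that passed became 39 without library 1 of each line and 45 without library 2. That test compares the reads of 2 libraries per line and not repeated cultures. The sign of the difference turned with the library used, at -2.53 points in library 1 and 0.57 points in library 2.

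The second insertion was private to LM8. It is an extra A after position 69478381, 133 bases downstream of the first, and had 4 of 321 reads in library 1 (1.25%) and 4 of 265 in library 2 (1.51%), which sum to 1.37% of 586 reads (interval 0.591 to 2.67). It was the weakest call of the 8, with a log odds score for the presence of the variant of 4.74 and a sequencing error quality of 7. Of all LM8 entries, 19.3% had a log odds score under 6. Whether MBT2 lacks this insertion cannot be read from the lists, which give no reads at unlisted sites.

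Both insertions sit in coding sequence, although the list annotates them as upstream. The annotated effect refers to the processed transcript ENSMUST00000130540, whose start it places 1272 and 1139 bases further on. In ENSMUST00000108658 the T run falls in codon 53 and the A run in codon 97, both in exon 4, and 5 of the 6 Trp53 transcripts of the reference annotation hold each run once. An extra T leads to a stop at codon 55 and an extra A to a stop at codon 129, of 390. Neither insertion is among the protein-changing variants counted above, which follow the annotated effect. The coding sequence of this transcript holds 5 runs of 6 or more equal bases, and insertions were listed at 2 of them.

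Insertions of A or T in runs of 6 were common in both lists. MBT2 had 453 with a median share of 4.07% (quartiles 2.76 and 6.06) and LM8 had 373 with a median of 4.09% (quartiles 2.84 and 6.28). The T insertion at 2.80% in MBT2 and 3.77% in LM8 lay below these medians and inside the quartiles, and the A insertion of LM8 at 1.37% lay below the lower quartile.

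At the shared site the depth in MBT2 was 2.13 times that in LM8, with 1073 and 504 reads. The median ratio over all 1261 shared sites was 1.08 (quartiles 0.821 and 1.42), and 75 of them had a larger ratio than Trp53. This is a description of read depth at 1 site of the gene, in libraries whose total depth was not used here, and not a test of expression.

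**Figure D3:**
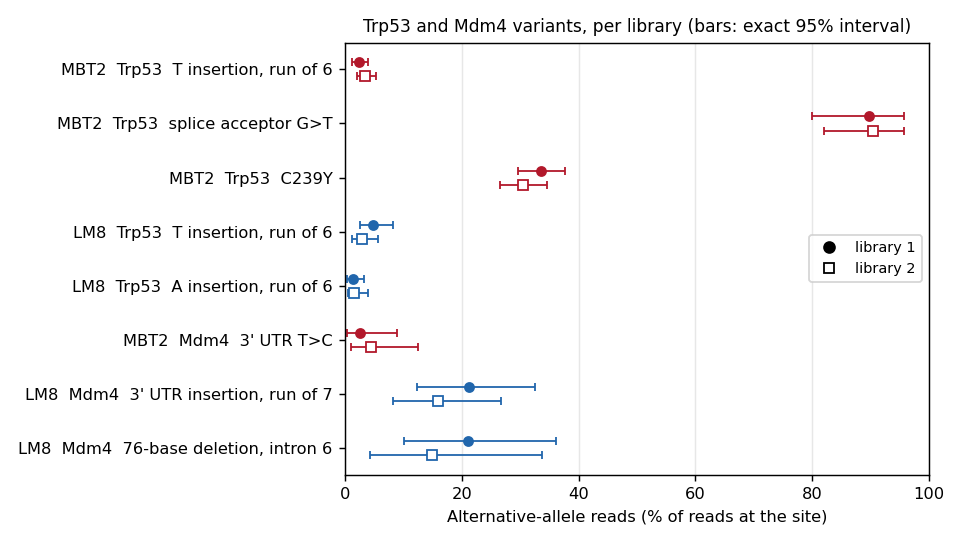
Share of alternative reads (horizontal axis, percent) for each of the 8 Trp53 and Mdm4 entries, with library 1 as filled circles, library 2 as open squares, exact 95% intervals as bars, MBT2 in red and LM8 in blue. The intervals of the duplicates overlap at every entry, and the acceptor change of MBT2 at 89.7% and 90.5% stands apart from all others. Its shares are of RNA that kept intron 4.

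No Mdm4 variant was listed in both lines. MBT2 listed 1, a substitution in the 3′ UTR at position 132919324 of chromosome 1, T-to-C on the genome's plus strand and so A-to-G in the RNA. It had 2 alternative reads of 79 in library 1 (2.53%) and 3 of 68 in library 2 (4.41%), which sum to 5 of 147 (3.40%, interval 1.11 to 7.76). Both libraries were low. All 5 alternative reads were forward, and their median distance from the read end was 1 base. Of all MBT2 substitutions, 29.8% had a median distance of at most 1 base and 56.2% had alternative reads in 1 direction only. MBT2 had 728 substitutions in 3′ UTRs that were A-to-G or T-to-C on the plus strand, with a median share of 4.48%. They were taken whatever the strand of the gene, so not all are A-to-G in the RNA. The part of the position at the read end in this call was not tested.

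The LM8 insertion in the Mdm4 3′ UTR was in a larger share of reads than other insertions of its kind. It adds a base to a run of 7 equal bases after position 132917988 of chromosome 1, the C run printed above. Library 1 had 15 of 71 reads (21.1%) and library 2 had 11 of 69 (15.9%), which sum to 26 of 140 (18.6%, interval 12.5 to 26.0). Alternative reads were on both directions, 15 forward and 11 reverse. The other 3 insertions of LM8 in G or C runs of 7 were at 1.52% to 4.64%, and the 4 of MBT2 at 1.89% to 5.32%. These sites were read more deeply, with median depths of 763 reads at the other 3 of LM8 and 527.5 at the 4 of MBT2. The Mdm4 site, with 140 reads, had the lowest depth of the 4 in LM8. The part of depth in its larger share was not tested. Among all 638 single-base insertions of LM8, whose median was 4.16%, the Mdm4 insertion was number 20 by share. The site was not listed in MBT2.

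The LM8 deletion in Mdm4 took out the 76 bases before exon 7. It starts after position 132931628 of chromosome 1 and is annotated as a loss of the acceptor of intron 6. Library 1 had 9 of 43 reads (20.9%) and library 2 had 4 of 27 (14.8%), which sum to 13 of 70 (18.6%, interval 10.3 to 29.7). The depth of 70 reads was the lowest of the 8 entries, and the intervals of the libraries were wide, at 10.0 to 36.0 and 4.19 to 33.7.

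The deleted bases have the ends of an intron on the strand of the gene. They begin with GT and end with the AG of the annotated acceptor, directly before the first base of exon 7, as the sequence above shows. The annotated intron 6 is 763 bases long, and 0 introns of the 14 Mdm4 transcripts in the reference annotation are 76 bases long. The 76 bases are held whole by 2 of these transcripts, both classed as retained introns. Without them, the intron bases that remain meet exon 7 in the middle of gttgcacactaactgcacggtgcaacagaa. The median fragment length was 5310 bases for alternative reads and 1115 for reference reads. Deletions of 21 or more bases, 1633 in LM8, had a median share of 87.5%, and 380 of them (23.3%, interval 21.2 to 25.4) were in under 50% of reads, as this one was. Whether the entry records splicing or lost DNA was not tested.

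Around both genes, with the substitutions in Trp53 and Mdm4 themselves left aside, private substitutions were mostly in few reads in either line. Within 5 Mb of Trp53 there were 24 in MBT2, with a median share of 4.94% and a highest share of 32.2%, and 28 in LM8, with a median of 5.02% and a highest of 100%. In MBT2, 3 of the 24 (12.5%) were at 20% to 40% and 0 were above 60%, so the acceptor change was the only private MBT2 substitution above 60% in that window. Its share is one of RNA that kept intron 4, which is not the same measure as a share at an exonic site. In LM8, 3 of the 28 were at 20% to 40% and 2 above 60%. With 10 Mb on either side, 17 of 54 MBT2 substitutions (31.5%) were in at least 20% of reads, 3 of them above 60%. In the rest of the MBT2 list, 24.0% were in at least 20% of reads outside 5 Mb and 23.8% outside 10 Mb, so the MBT2 share lay below the rest in the smaller window and above it in the larger. In LM8, 5 of the 28 (17.9%) were in at least 20% of reads, against 13.7% in the rest of the list. The rest of the lists had medians of 6.35% in MBT2 and 5.88% in LM8. Within 5 Mb of Mdm4 there were 17 in MBT2 with a median of 5.21%, and 13 in LM8 with a median of 5.62%. The sites share libraries and depth, and the numbers are a description.

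**Figure D4:**
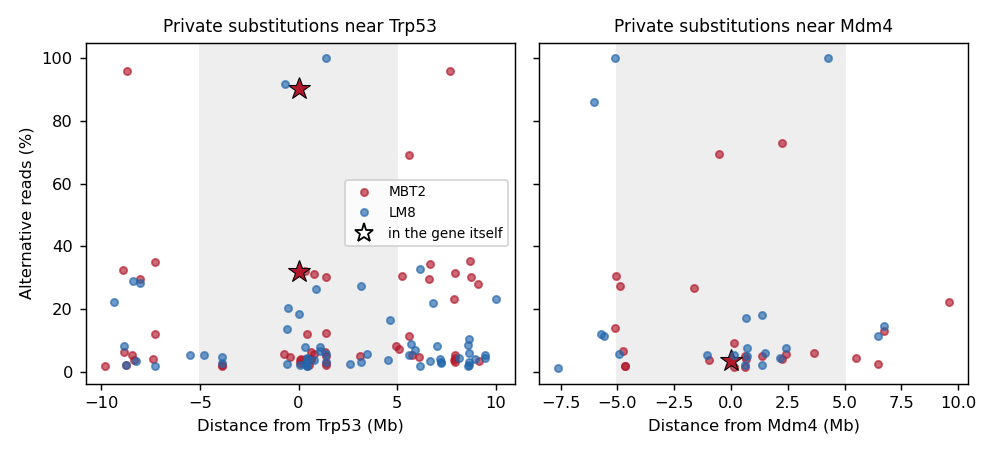
Share of alternative reads (vertical axis, percent) of private substitutions by distance from Trp53 (left) and Mdm4 (right) in Mb, with MBT2 in red, LM8 in blue, substitutions in the gene itself as stars and the window of 5 Mb on either side shaded. Near Trp53 the MBT2 points inside the window stay at or below 32.2% apart from the acceptor change at 90.1%, a share of RNA that kept intron 4.

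Genes of the p53 pathway were read from 4 lists that together hold 82 genes and were chosen with earlier results of these data known. Trp53 and Mdm4 are on these lists, so the counts are not of other genes alone. Trp53 was among the MBT2 genes counted below, and Mdm4 among those of LM8 where deletions of 21 or more bases were included. Of the genes with a listed variant, 15 of 28 in MBT2 (53.6%) and 8 of 22 in LM8 (36.4%) had a private protein-altering variant, against 36.7% of all such genes in MBT2 and 32% in LM8. Deletions of 21 or more bases made up part of this. Without them the counts were 11 of 21 in MBT2 and 4 of 17 in LM8, against 32.1% and 29.2% of all genes. Among activators and cofactors of p53 the counts were 8 of 10 genes in MBT2 and 1 of 7 in LM8. They were 7 of 9 in MBT2 and 0 of 6 in LM8 without long deletions. When only variants in at least 10% of reads were counted, they were 4 genes in MBT2 and 1 in LM8. No share over all genes was computed at that limit. The difference between the lines was not tested. Among inhibitors and their regulators the counts were 1 of 5 in MBT2 (Usp2) and 3 of 7 in LM8 (Mdm4, Usp7 and Wrap53). Without long deletions these were 0 of 2 in MBT2 and 1 of 6 in LM8 (Usp7). Among target genes the counts were 5 of 12 in MBT2 and 4 of 7 in LM8, and 3 of 9 and 3 of 4 without long deletions. In the p53 family, Trp53 had 1 of 1 in MBT2 and 0 of 1 in LM8 by annotated effect, and Trp63 and Trp73 had no entry. The private A insertion of LM8 in exon 4 of Trp53 is annotated as upstream and was not counted here.

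The ubiquitin ligase gene Mdm2, the tumour suppressor gene Cdkn2a, whose Arf product restrains Mdm2, and the p53 target Cdkn1a, a cell cycle inhibitor, had 0 listed variants in either line. A gene without an entry may be unchanged, lack reads or have been filtered, which the lists do not tell apart.

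With deletions of 21 or more bases and Trp53 itself left aside, the MBT2 pathway variants with the highest shares were in genes of acetyltransferases that act on p53. Kat2b carried D674N in 36 of 49 and 37 of 49 reads (74.5% of 98, interval 64.7 to 82.8), and Crebbp carried E1551Q in 27 of 84 and 30 of 91 reads (32.6% of 175, interval 25.7 to 40.1). Both were even between the duplicates. The phosphatase gene Ptpn14, a p53 target in mice, had the stop-gained change Q516* in 4 of 28 and 8 of 34 reads (19.4%, interval 10.4 to 31.4). The DNA break repair gene Mre11a had an insertion of 66 bases at a splice donor in 14.8% of 61 reads.

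The other named MBT2 variants were in under 10% of reads. They were R1398W and K1575E of Trp53bp1, a break repair gene (8.82% and 3.85%), G625E of Trp53bp2, a p53 cofactor gene (5.80%), and M1045T of Rad50, a partner of Mre11a (5.50%). K1184E of the damage kinase gene Atm (5.26%) and R679W of the cell death gene Pidd1 (4.55%) completed them. R1398W, G625E and R679W each lacked alternative reads in 1 library.

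LM8 had 6 private protein-altering pathway variants other than deletions of 21 or more bases, all in under 10% of reads. Low shares were common in the whole LM8 list. Its missense substitutions had a median share of 5.71% and an upper quartile of 9.77%, against 6.45% and 24.2% in MBT2. With such deletions included, 10 pathway genes in MBT2 and 6 in LM8 had a private protein-altering variant in at least 10% of reads. The share over all genes at that limit was not computed, so these counts have no background beside them. Trp53 was among those of MBT2 and Mdm4 among those of LM8. Ptpn14 carried R775S (6.25%) and V761A (2.88%), and Pidd1 carried G337R (4.44%). The deubiquitinase gene Usp7, whose product stabilises Mdm2 and p53, had an insertion of 1 base with a frameshift (4.65%). That insertion had 5 of 61 and 1 of 68 reads in the duplicates. It is one of the 373 LM8 insertions of A or T in runs of 6, whose median share was 4.09%. The kinase gene Plk3, a p53 target, carried G239V (4.08%) and P260S (2.74%). The Pidd1 change and both Plk3 changes had no alternative read in 1 library. The difference in share between the MBT2 and LM8 variants concerns different sites, so no test between the lines could be made.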

How the data were processed

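The deposited lists are in variant call format 4.2, 1 per line, and hold reads per allele and library. Per the file headers, the authors called both libraries of a line jointly with Mutect 2.2, kept entries that passed its filters, and annotated 1 effect per variant with SnpEff 5.1d and database 105 of GRCm39. The submitters' processing notes name bcl2fastq 2.17.1.14, cutadapt 1.9.1, STAR 2.7.9a and GATK 4.3.0. Paired reads were 75 bases long, per the labels. The file headers name no normal sample.

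Entries with the gene symbol Trp53 or Mdm4 were taken. The share of alternative reads was computed over both alleles. Listed sites held 742698 and 790762 reads in MBT2 and 596298 and 571088 in LM8, with medians of 61 to 73 per site and at least 14 reads over both libraries. Shared variants had equal position and alleles in both lists. The count tests and thresholds (adjusted p under 0.05) ran over whole lists and were tried on simulated data. The simulated reads were independent and the changes far larger than the difference at the shared Trp53 insertion. The simulation therefore does not show what the tests would find at small differences. Named variants were all of Trp53, Mdm4, Mdm2, Cdkn2a and Cdkn1a and, of other pathway genes, up to 10 private protein-altering variants per line other than deletions of 21 or more bases, by share. Members and gene lists were chosen with earlier results of these data known. Tests were run with scipy 1.17.1 under Python 3.11.15, on tables read with pandas 2.3.3, and figures were drawn with matplotlib 3.10.9. Alternatives left out a library, changed the filters or used the caller's estimates.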

Additional observations from a re-analysis of the deposited data

How the results depend on the processing

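Leaving out a library gives each share the value of the other library, so it does not test the shares of the 8 entries. For the other alternatives, a share counted as unmoved if it shifted by no more than the larger distance of a library from the summed share. Shares were unmoved when fragments replaced reads, an alternative chosen after seeing the data (8 of 8). They were also unmoved with the caller's own estimate (6 of 8) and with reads of 1 pair orientation (2 of 3 F1R2, 5 of 5 F2R1). The exceptions were the A insertion of LM8 (1.65%) and the acceptor change of MBT2 (89.3%) by the caller's estimate, and the Mdm4 deletion (23.1%) in F1R2 reads. The number of entries was 4 in MBT2 and 3 in LM8 without long deletions, and 4 in both with at least 20 reads or with an alternative read in both libraries. The private entries were 3 per line also when matched by position only. For the shared Trp53 insertion the adjusted p (exact test) was 0.567 to 1 over the duplicates left out, and the difference turned positive without replicate 1 (adjusted p = 1). With the replicate number as a block, an exact stratified test, run in place of the Cochran-Mantel-Haenszel approximation, gave an adjusted p of 0.941 and called 92 shared variants, as the unblocked test did. Deviations of same-numbered libraries had a correlation of -0.02 across sites. That value cannot tell if the numbers pair the samples, since the deviations include counting error and a shared batch need not change allele shares. The shared variants called were 39 without replicate 1 and 45 without replicate 2, against 92, from fewer reads per site. Pathway genes with a private protein-altering variant numbered 11 in MBT2, against 15, and 4 in LM8, against 8, without long deletions. At an allele fraction of at least 0.1 they numbered 10 and 6, with no share over all genes computed at that fraction. Medians near the genes stayed within 1.5 times their value with windows of 2 and 10 Mb. The test between duplicates called 0 sites also with at least 20 reads per library. Depth limits the Mdm4 deletion most, with 70 reads.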
